A study of Mus musculus with 4 samples.

Results

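The 39 protein-coding Hox genes of the mouse were described in skeletal stem cells sorted from long bone after sham surgery or ovariectomy. They were found by symbol, as Hoxa, Hoxb, Hoxc or Hoxd with a number, among 55487 gene IDs, without use of any measured value. HoxA held 11 of them (chromosome 6), HoxB 10 (chromosome 11), HoxC 9 (chromosome 15) and HoxD 9 (chromosome 2). Each group had 2 libraries of bulk RNA, sham 1 and 2 and ovariectomy 1 and 2, all from wild-type mice and all labelled 8 weeks. The labels do not say whether that time is an age or an interval after surgery. Cells were released from the metaphysis with collagenase, stained for 6C3, CD45, CD51, CD90, CD105, CD200, Ter119 and Tie2, and sorted by flow cytometry. Removal of the ovaries takes away the main source of oestrogen. The series title sets the comparison in the progression of osteoporosis. Strain, the gate drawn on the stains, the bones taken and the number of animals behind a library were not given in the sources used here. P-values therefore measure the spread between these libraries, which may be technical.

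Hox genes encode homeodomain transcription factors and lie in 4 clusters, in an order that matches where along the body axis each gene is used. Low paralogue numbers act towards the head and high numbers towards the tail, and along a limb the groups from 9 upwards pattern the upper segment, then the lower segment, then hand or foot. Adult skeletal and stromal cells are known to keep a Hox pattern that reflects the place where they arose.

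The homeoboxes of the 3 group 10 genes and of Hoxc9 are shown because groups 9 and 10 held most of the Hox RNA described below. Each is the 180-base stretch coding for the DNA-binding homeodomain, 5′ to 3′ on the coding strand, read from GENCODE M21 transcripts (GRCm38). Capitals mark bases that differ from Hoxc10.
Hoxc10: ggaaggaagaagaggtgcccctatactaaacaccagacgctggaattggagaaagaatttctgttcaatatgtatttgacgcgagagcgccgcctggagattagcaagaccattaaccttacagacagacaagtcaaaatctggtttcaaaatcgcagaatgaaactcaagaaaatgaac
Hoxa10: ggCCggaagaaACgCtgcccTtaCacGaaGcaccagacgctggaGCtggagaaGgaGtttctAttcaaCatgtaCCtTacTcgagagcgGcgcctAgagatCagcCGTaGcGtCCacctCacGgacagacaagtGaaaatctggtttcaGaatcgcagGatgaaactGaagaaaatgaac
Hoxd10: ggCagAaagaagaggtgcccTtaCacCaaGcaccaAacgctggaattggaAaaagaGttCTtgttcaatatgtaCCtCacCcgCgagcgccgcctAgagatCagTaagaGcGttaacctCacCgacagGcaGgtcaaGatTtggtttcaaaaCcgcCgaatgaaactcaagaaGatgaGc
Hoxc9: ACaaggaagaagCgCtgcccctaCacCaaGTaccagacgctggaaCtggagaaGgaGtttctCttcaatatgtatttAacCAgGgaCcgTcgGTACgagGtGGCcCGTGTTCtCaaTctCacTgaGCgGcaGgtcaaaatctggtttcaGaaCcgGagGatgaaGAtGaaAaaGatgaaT
The Hoxc10 homeobox lies in exon 2 at chr15:102970848-102971027 (+ strand). Those of Hoxa10 and Hoxd10 lie at chr6:52232554-52232733 (- strand) and chr2:74694141-74694320 (+ strand). That of Hoxc9 lies at chr15:102983930-102984109 (+ strand). Against Hoxc10, Hoxd10 differed at 31 bases and Hoxa10 at 35, while Hoxc9 differed at 51. The longest stretch that any of the 3 shared with Hoxc10 was 17 bases (Hoxc9). Over whole transcripts, no 50-base word of Hoxc10, Hoxa10, Hoxd10, Hoxa9 or Hoxd9 occurred in a transcript of a gene elsewhere in the genome, and for Hoxc9 1.44% of words did. Genes that overlap the member in position were left out of that search. Among these, Hoxc5 shares 166 exon bases with Hoxc10, Mir196b 85 with Hoxa9 and Gm28309 104 with Hoxd10.

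Library totals ran from 18291436 to 23721078 counts, and 1 count was worth 0.0423 to 0.0519 CPM (read counts relative to the TMM-scaled library total). Together the Hox genes took 4980, 4697, 3729 and 2576 counts in sham 1, sham 2, ovariectomy 1 and ovariectomy 2, which is 0.0217%, 0.0198%, 0.0161% and 0.0141% of the counts. Of the stained antigens, Itgav (CD51) and Cd200 were at 67.3 CPM or more in every library, Ptprc (CD45) was at 3.55 to 9.55 CPM, and Thy1 (CD90) at most at 0.211 CPM. Cd200 fell, from 237 and 305 CPM in sham to 173 and 155 CPM in ovariectomy (log2 fold change -0.73, SE 0.15, edgeR adjusted p = 0.0462), the only 1 of 6 tested antigen genes that was called. Eng (CD105), Enpep (6C3) and Tek (Tie2) were higher in both ovariectomy libraries and were not called, with Tek at 0.223 CPM in sham 1 and 5.52 to 9.76 CPM in the other libraries. The 7 chondrocyte markers summed to 92063 to 99723 CPM in sham against 53024 to 58261 CPM in ovariectomy, and 6 of them fell. The 6 osteoblast markers summed to 77938 to 106573 CPM in sham against 65148 to 71143 CPM after ovariectomy, with 3 that fell. Tendon and fibroblast markers went the other way, from 111 to 169 CPM in sham to 555 to 612 CPM, and 6 of 8 rose. Blood markers summed to 46.2 to 50.9 CPM in sham against 190 to 270 CPM in ovariectomy. Of the 12 blood markers 10 were tested and 5 rose, though the defining Ptprc and Spi1 overlapped between the groups. Pericyte and smooth muscle markers summed to 308 to 338 CPM and 572 to 621 CPM (2 of 7 rose), and endothelial markers to 31.8 to 91.4 CPM and 114 to 143 CPM (0 of 8 called by edgeR, 2 at an unadjusted p under 0.05, with the defining Cdh5 at 0 in sham 1). Schwann markers summed to 54.6 to 63.7 CPM and 76.4 to 118 CPM (1 of 5 rose), and skeletal muscle markers to 5.12 to 5.93 CPM and 7.89 to 8.54 CPM. Of the 7 skeletal muscle markers 3 were tested and 0 called by edgeR, with 1 at an unadjusted p under 0.05. Beside these counts, edgeR called 1.2% of all genes tested lower and 2.98% higher, with 18.4% at an unadjusted p under 0.05. The antigen and marker levels differed between the groups alongside the Hox levels below, and their part in them was not tested. In bulk RNA, fewer cells of a type and less RNA per cell cannot be told apart.

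Ordered by level per kilobase of exon, the Hox RNA of these cells was led by the paralogue groups of the upper limb segment. Hoxc10 came first at 26.9 and 20.9 CPM per kb in sham against 13.6 and 12.3 CPM per kb in ovariectomy. Hoxa10 came next, at 15.03, 13.3, 12.1 and 10.6 CPM per kb in the same order of libraries. By this length Hoxc10 lay above Hoxa10 in each library, and the pair lay closer together in the ovariectomy libraries. Hoxa10 has 3270 bases of exon but a longest coding transcript of 2565 bases, and Hoxc10 has 1909 bases by either measure. In the ovariectomy libraries the order of the pair therefore depends on the length used, with Hoxa10 above Hoxc10 by transcript length. Hoxc9 followed at 7.45, 8.01, 4.49 and 3.74 CPM per kb, above Hoxa9 in each library by exon length only. Then came Hoxa9 (2.44 to 5.18 CPM per kb over the 4 libraries), Hoxa7 (2.90 to 5.14), Hoxc6 (2.14 to 4.53), Hoxd9 (2.32 to 4.27) and Hoxc8 (1.63 to 3.46), whose ranges overlapped. By exon length Hoxa9 lay above Hoxc8 in each library, and the order of every other pair among them changed between libraries. Hoxa11 and Hoxc4 completed the first 10, with means of 1.91 and 1.76 CPM per kb. The same 10 genes led when exon length shared with other genes was left out. They also led by the length of the longest coding transcript, but in another order. By that length Hoxc10 and Hoxa10 had means of 18.4 and 16.3 CPM per kb, and Hoxa9 came before Hoxc9, at 6.87 and 6.06.

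**Figure D1:**
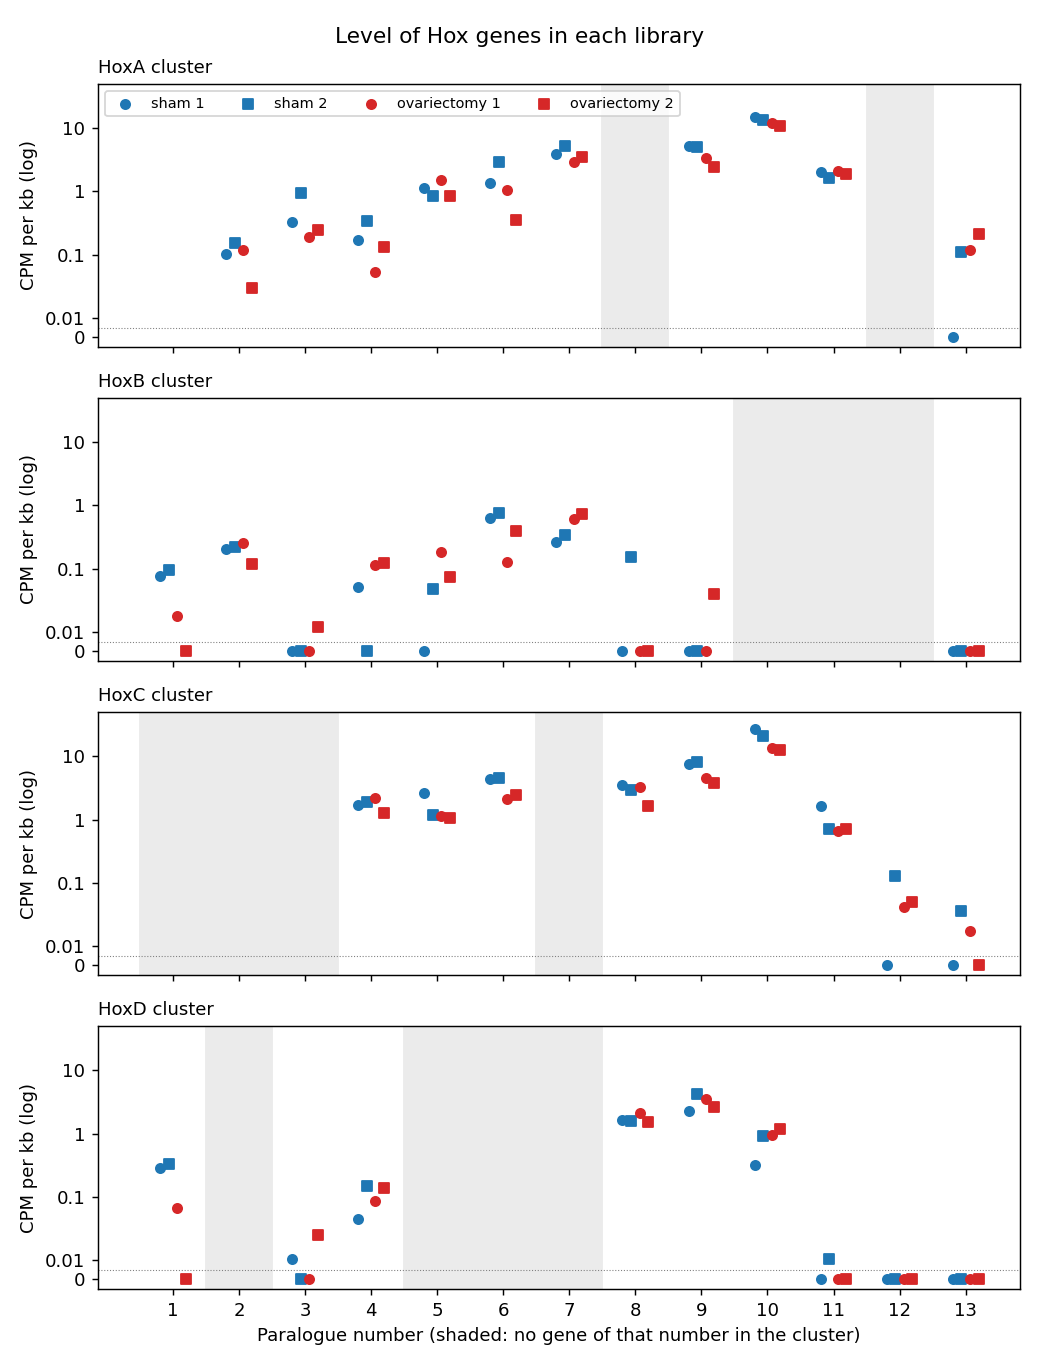
Level of Hox genes in each library, in CPM per kb of exon on a log axis, by cluster and paralogue number, with values of 0 drawn below the dotted line and shading where a cluster has no gene of that number (genes not reported here are not drawn). The highest points are at number 10 of HoxC and HoxA, HoxB stays under 1 CPM per kb throughout, and numbers 12 and 13 are at 0.210 CPM per kb or less in every cluster.

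Groups 9 to 13 together made up 71.9% and 68.9% of the summed Hox level per kb in sham, and 69.0% and 70.7% in ovariectomy. Nearly all of this came from groups 9 and 10, at 57.2, 52.2, 38.0 and 32.9 CPM per kb in sham 1, sham 2, ovariectomy 1 and ovariectomy 2. The central groups 5 to 8 stood at 19.2, 20.4, 14.98 and 12.6 CPM per kb and the anterior groups 1 to 4 at 4.64, 4.399, 3.42 and 2.28 CPM per kb. In all of these sums the ovariectomy libraries lay below the sham libraries, while the share taken by groups 9 to 13 overlapped. No test was made of summed levels, because 2 libraries against 2 cannot give an exact permutation p under 0.333.

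After ovariectomy 1 Hox gene fell, Hoxc10, and none rose in edgeR or under any alternative run. That is 1 of the 22 members with enough counts to be tested, beside 4.18% of all 17120 genes tested called in either direction and 1.2% called lower and 2.98% called higher (edgeR quasi-likelihood F test, Benjamini-Hochberg adjusted p under 0.05). Of the 22, 17 had a log2 fold change below 0, against 51.3% of all genes, and their median was -0.62 against -0.02 for all genes. Both ovariectomy libraries lay below both sham libraries for 11 of the 22, where 23.9% of all genes did, and above them for 2, Hoxb7 and Hoxd10, where 25.5% of all genes did. In either direction that makes 13 of 22, beside 49.3% of all genes. An unadjusted p under 0.05 was reached by 5 of the 22, near the 18.4% of all genes. Members of a cluster are neighbours, so these are not counts of independent genes. They also cover only the members that passed the count filter, which a gene can pass through the group in which it is high.

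**Figure D2:**
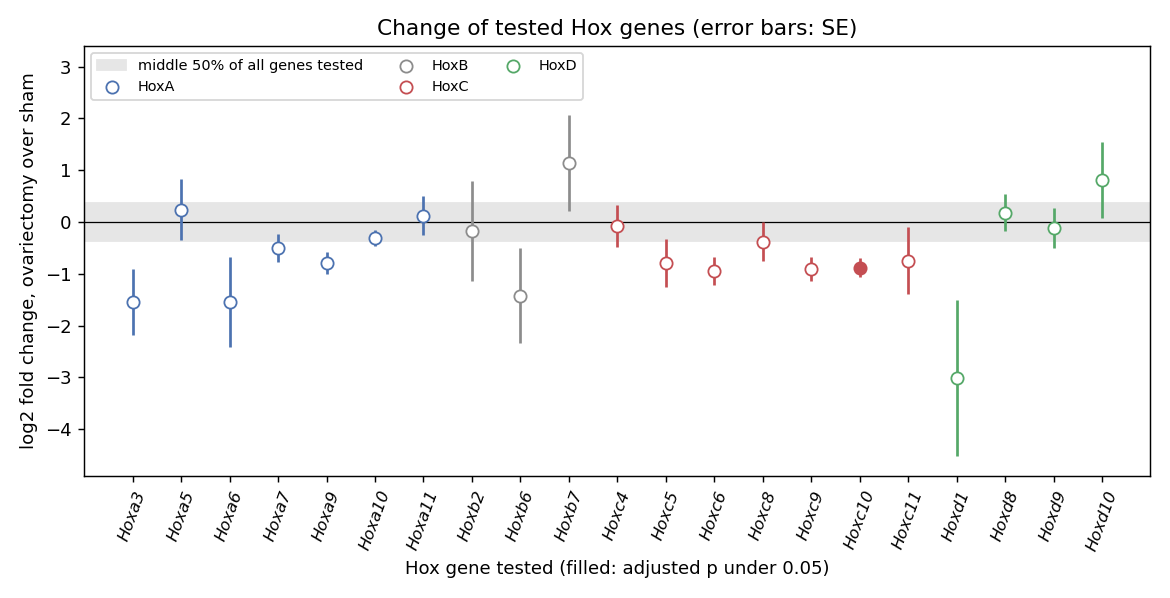
Log2 fold change (ovariectomy over sham, 2 libraries a group) of tested Hox genes with SE bars, coloured by cluster, over a grey band for the middle 50% of all genes tested. Hoxc10 is the filled point, all 7 HoxC points lie below 0 (Hoxc4 at 0.02 when only library totals were used for scaling), and the widest bars belong to genes with few counts.

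Hoxc10 (ENSMUSG00000022484, chr15:102966796-102971893, + strand) is known from the hindlimb and the lumbar spine. It had 1153 and 895 counts in sham 1 and 2 and 612 and 452 in ovariectomy 1 and 2. Scaled, these were 51.4 and 39.8 CPM against 25.9 and 23.5 CPM. Both ovariectomy libraries lay below both sham libraries, and the sham pair differed from each other by more than the ovariectomy pair did. The gene fell by 0.89 on the log2 scale (SE 0.18), 1.85-fold lower, with an edgeR adjusted p of 0.0448. The call was close to the threshold: with only library totals for scaling the adjusted p was 0.0617, without sham 1 it was 0.0604, and without ovariectomy 1 or ovariectomy 2, where no gene of the table was called, it was 0.418 and 0.507. Hoxc10 shares 166 bases (8.70% of its exon length) with exons of Hoxc5.

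Its paralogue Hoxa10, a gene of the upper limb segment and the uterus, stood at 49.2 and 43.4 CPM in sham against 39.7 and 34.6 CPM in ovariectomy. The groups did not overlap, but the difference was small, at -0.32 on the log2 scale (SE 0.16, edgeR adjusted p = 0.356). Per kb, the ratio of Hoxc10 to Hoxa10 was 1.79 and 1.57 in sham against 1.12 and 1.16 in ovariectomy. Hoxd10, the remaining member of the group, had 13 and 37 counts in sham against 41 and 42 in ovariectomy, or 0.580, 1.65, 1.73 and 2.18 CPM. It was higher in both ovariectomy libraries by a narrow margin over sham 2, with a log2 fold change of 0.81 (SE 0.74, edgeR adjusted p = 0.662).

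In group 9, which acts with group 10 in the upper limb segment, Hoxc9 stood at 18.1 and 19.5 CPM in sham against 10.9 and 9.09 CPM in ovariectomy. The pairs were tight and well apart, and the log2 fold change was -0.91 (SE 0.22, edgeR adjusted p = 0.0775), short of the threshold of 0.05. Hoxa9 was at 28.9 and 27.4 CPM in sham against 18.8 and 13.6 CPM in ovariectomy. Its groups did not overlap either, and the log2 fold change was -0.80 (SE 0.22, edgeR adjusted p = 0.0998). Both genes crossed the threshold when the low-count filter was dropped (adjusted p = 0.0252 for Hoxc9 and 0.0160 for Hoxa9) or raised to a mean of 5 CPM (0.0411 and 0.0431), and Hoxc9 also without sham 1 (0.0465). Hoxd9 did not separate the groups, with 4.95 and 9.13 CPM in sham around 7.40 and 5.61 CPM in ovariectomy. Its sham libraries enclosed the ovariectomy libraries (log2 fold change -0.11, SE 0.38). Hoxb9 had 2 counts in ovariectomy 2 and none elsewhere. The ratio of Hoxc9 to Hoxa9 per kb, 1.44 and 1.63 in sham against 1.33 and 1.53 in ovariectomy, overlapped between the groups, while that of Hoxd9 to Hoxc9 was 0.311 and 0.534 in sham against 0.772 and 0.702 in ovariectomy.

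Group 11 patterns the lower limb segment and was present at lower levels. Hoxa11 stood at 4.68 and 3.70 CPM in sham against 4.82 and 4.31 CPM in ovariectomy, overlapping, with a log2 fold change of 0.12 (SE 0.37). Since 34.98% of its exon length lies over its antisense partner Hoxa11os and the strand setting of the counting is not given, its reads cannot be told apart from that RNA there. Hoxc11 was at 3.30 CPM in sham 1 and between 1.35 and 1.454 CPM in the other 3 libraries, so its log2 fold change of -0.75 (SE 0.65) rests on sham 1 and is -0.02 without it. Hoxd11 had 1 count in all.

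Groups 12 and 13, known for patterning hand, foot and tail, had no member with enough counts to be tested among 6. Hoxb13, Hoxd12 and Hoxd13 had 0 counts in every library, where a count of 0 allows up to 3 counts. Hoxa13 had 0 and 6 counts in sham against 7 and 10 in ovariectomy, and Hoxc12 and Hoxc13 at most 3 in any library. Of all 39 members 17 were under the filter, with at most 12 counts (0.534 CPM) in a library, and 9 of these had at most 3 counts in every library. Of these 17, 7 belonged to HoxB.

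Among the central groups, which pattern the trunk and the shoulder region, Hoxc6 was at 10.4 and 10.9 CPM in sham against 5.16 and 5.92 CPM in ovariectomy. The pairs did not overlap, with a log2 fold change of -0.95 (SE 0.28, edgeR adjusted p = 0.118). All 3 group 6 genes lay lower in both ovariectomy libraries, the other 2 at low counts, where 23.9% of all genes did. The group was singled out after its values were seen. Hoxa6 had 26 and 57 counts in sham against 22 and 6 in ovariectomy, and Hoxb6 had 28 and 34 against 6 and 15. Hoxa7 stood at 11.2 and 14.8 CPM in sham against 8.33 and 10.02 CPM in ovariectomy, apart but with more spread within each pair than between the nearest libraries of the 2 groups (log2 fold change -0.50, SE 0.27, edgeR adjusted p = 0.394). Of its exon length 20.4% lies over the antisense RNA Hoxaas3. Hoxc8 was at 9.81 and 8.19 CPM in sham against 9.17 and 4.62 CPM in ovariectomy, overlapping (log2 fold change -0.38, SE 0.38). Hoxd8 was between 4.26 and 5.79 CPM in all 4 libraries and Hoxa5 between 1.56 and 2.79 CPM, with overlap in both. For Hoxc5 only sham 1 stood out, at 7.98 CPM against 3.22 to 3.61 CPM in the other libraries. Hoxb7, with 9 and 12 counts in sham against 22 in each ovariectomy library, was the second gene that lay higher (log2 fold change 1.14, SE 0.92, edgeR adjusted p = 0.605).

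The anterior groups, which pattern hindbrain and neck, were sparse, and Hoxa3 was uneven within sham. Hoxa3 had 44 and 126 counts in sham against 27 and 28 in ovariectomy, or 1.96, 5.61, 1.14 and 1.454 CPM. The ovariectomy pair was tight and below both sham libraries, which differed from each other by more than sham 1 did from ovariectomy (log2 fold change -1.54, SE 0.64, edgeR adjusted p = 0.257). Without sham 1 its log2 fold change was -2.11 with an adjusted p of 0.0172, and without sham 2 it was -0.59 with an adjusted p of 0.701. Hoxd1 had 12 and 14 counts in sham against 3 and 0 in ovariectomy, and the edgeR adjusted p was 0.356. The summed ratio was 8.29, with a 95% counting interval of 2.54 to 42.8. That interval leaves out the spread between libraries. It was made because 1 group had few counts, and the gene passed the count filter through sham, so it is no evidence of a difference. Hoxc4 was between 3.22 and 5.54 CPM and Hoxb2 between 0.416 and 0.888 CPM, with overlapping groups. Hoxa3 and Hoxb2 share 27.1% and 27.3% of their exon length with neighbouring genes.

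Taken by cluster, HoxC and HoxA lay lower after ovariectomy, and HoxB and HoxD overlapped between the groups. Summed HoxC was 48.1 and 40.3 CPM per kb in sham against 27.4 and 23.2 CPM per kb in ovariectomy, 1.75-fold lower. Summed HoxA was 30.8 and 30.5 CPM per kb in sham against 23.9 and 20.4 CPM per kb in ovariectomy, 1.38-fold lower. HoxD stood at 4.61, 7.28, 6.68 and 5.55 CPM per kb and HoxB at 1.23, 1.63, 1.30 and 1.504 CPM per kb. With library totals only, the log2 ratio of summed HoxB went from -0.03 to 0.08. All 39 genes summed to 84.8 and 79.7 CPM per kb in sham against 59.3 and 50.7 CPM per kb in ovariectomy, 1.495-fold lower. For comparison, the median of all genes tested was -0.02 on the log2 scale.

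The share of Hox counts that came from each cluster also differed between libraries. HoxC supplied 47.5% of all Hox counts in sham 1 (exact 95% binomial interval 46.1% to 48.9%) and 42.4% in sham 2 (40.9% to 43.8%), and 39.05% (37.5% to 40.6%) and 38.2% (36.3% to 40.1%) in ovariectomy 1 and 2. The sham libraries differed from each other beyond counting error, and both lay above the ovariectomy libraries. HoxD supplied 4.82% and 7.79% in sham against 9.71% and 9.39% in ovariectomy. HoxA supplied 46.5%, 48.1%, 49.4% and 50.2%, and HoxB 1.20% to 2.25%. These intervals cover counting error only, and the sources used here name no molecular identifiers. The shares are of counts without scaling for length, so they compare libraries within a cluster and do not rank the clusters. By counts HoxA was above HoxC in sham 2 and both ovariectomy libraries, while per kb HoxC was above HoxA in every library.

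**Figure D3:**
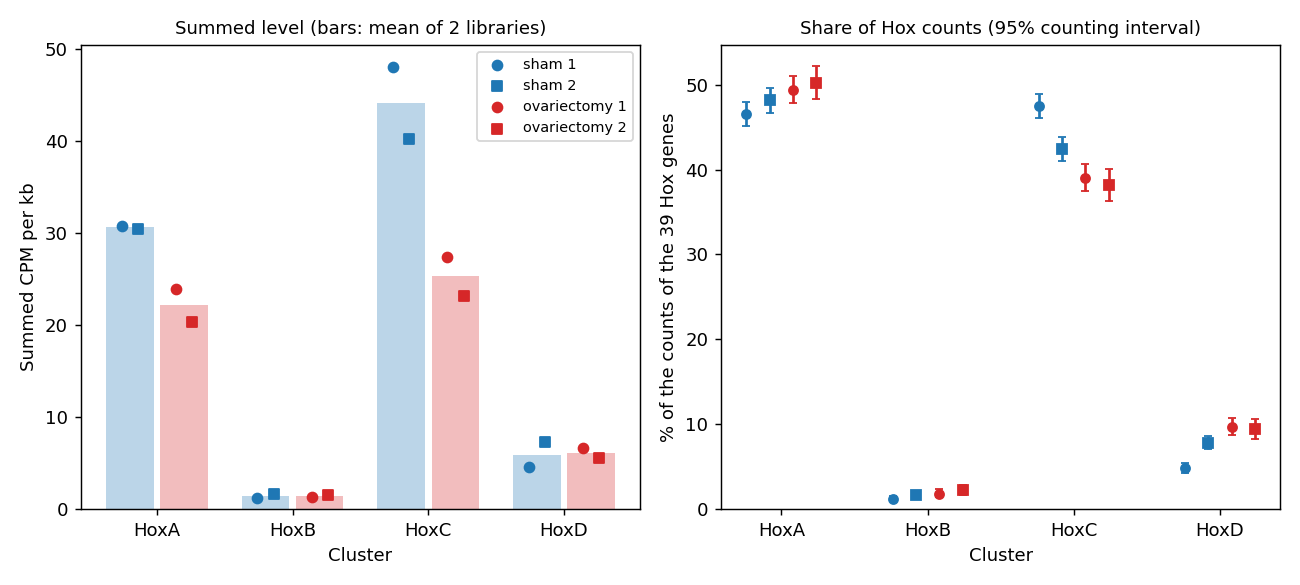
Left, summed CPM per kb of each Hox cluster in each library, with bars for the mean of 2 libraries. Right, the share of all Hox counts from each cluster, not scaled for length, with exact 95% counting intervals. HoxC goes from 47.5% and 42.4% in sham to 39.05% and 38.2% in ovariectomy.

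Motifs of the oestrogen and retinoic acid receptors and of Hox with Pbx were searched in promoters, on both strands, from 250 bases before to 50 after the start site. RefSeq promoters (GRCm38.p6) were held for 22 Hox genes, 24 promoters in all, and Hoxc10 was not among them. The palindromic oestrogen response element GGTCANNNTGACC was found in none of the 24, against 0.07% of all 32851 promoters. The retinoic acid direct repeats AGGTCANNAGGTCA and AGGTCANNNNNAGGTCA were also in none, against 0.00913% of all promoters each. The composite Hox and Pbx site TGATNNAT was in 4 (16.7%), those of Hoxa2, Hoxb1, Hoxb8 and Hoxd11, against 8.85% of all promoters. The short GGTCA, which is contained in the longer receptor motifs, was in 12 (50%), against 40.5%. All 4 genes with the Hox and Pbx site were under the count filter here. These letter matches describe the windows and are not evidence of binding.

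Hox proteins bind DNA with partners of the Pbx, Meis and Pknox families. All 9 partner genes were tested and 0 were called by edgeR, with a median log2 fold change of 0.02. In edgeR 1 (11.1%) had an unadjusted p under 0.05, against 18.4% of all genes. DESeq2 and limma-voom each called 1. Pbx4 was at 1.29 and 2.94 CPM in sham against 0.9302 and 0.416 CPM in ovariectomy, lower in both (log2 fold change -1.64, SE 0.80, edgeR adjusted p = 0.343). Meis1, which marks the upper limb segment, stood at 3.79 and 5.39 CPM and 6.34 and 6.44 CPM, a log2 fold change of 0.48 (SE 0.34). Meis2, of similar role, overlapped at 4.77, 9.88, 6.72 and 4.57 CPM.

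Of 40 other limb patterning factors 32 were tested, 1 fell and none rose, and their median log2 fold change was 0.19. The 1 called is 3.125% of those tested, near the 4.18% called over all genes. The gene that fell was Dlx5, a homeobox factor of cartilage and bone formation. It was at 80.3 and 66.6 CPM in sham against 39.5 and 32.3 CPM in ovariectomy, with no overlap. It fell by 1.03 on the log2 scale (SE 0.17, edgeR adjusted p = 0.0192). Chondrocyte and osteoblast marker levels fell in the same libraries, as given above, and their part in this was not tested. Without ovariectomy 1 or ovariectomy 2 its adjusted p was 0.272 and 0.377.

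The forelimb factor Tbx5 and the hindlimb factors Tbx4 and Pitx1 were all detected, and the labels do not say which limbs were taken. Tbx5 stood at 4.24 and 9.84 CPM in sham against 9.89 and 6.86 CPM in ovariectomy, and Pitx1 at 8.16 and 10.6 CPM and 13.7 and 8.62 CPM. Both overlapped between the groups, with log2 fold changes of 0.25 (SE 0.44 and 0.31). Tbx4 was at 0.312 and 0.267 CPM in sham against 1.78 and 1.82 CPM in ovariectomy, without overlap. Its log2 fold change was 2.61 (SE 0.83, edgeR adjusted p = 0.146), from 7 and 6 counts in sham against 42 and 35 in ovariectomy. Tbx4 passed the count filter through the ovariectomy libraries, in which it was high, so its separation is no evidence of a difference. Shox2, a factor of the upper limb segment that acts beside Hox genes, was at 87.6, 82.8, 71.0 and 62.7 CPM, lower in both ovariectomy libraries (log2 fold change -0.35, SE 0.13, edgeR adjusted p = 0.225). Tbx15, a factor of limb and shoulder girdle skeleton, was at 63.9 and 64.9 CPM in sham against 66.4 and 82.5 CPM in ovariectomy (log2 fold change 0.21, SE 0.15). The dorsal limb factor Lmx1b was near the floor in sham 1, at 0.0446 CPM, and at 0.579, 2.28 and 1.14 CPM in the other libraries (log2 fold change 2.44, SE 1.17, edgeR adjusted p = 0.330). Without sham 1 the log2 fold change of Lmx1b was 1.56 (adjusted p = 0.371) and without sham 2, which leaves the library with the lowest value as the only sham library, 5.11 (adjusted p = 0.0286).

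**Figure D4:**
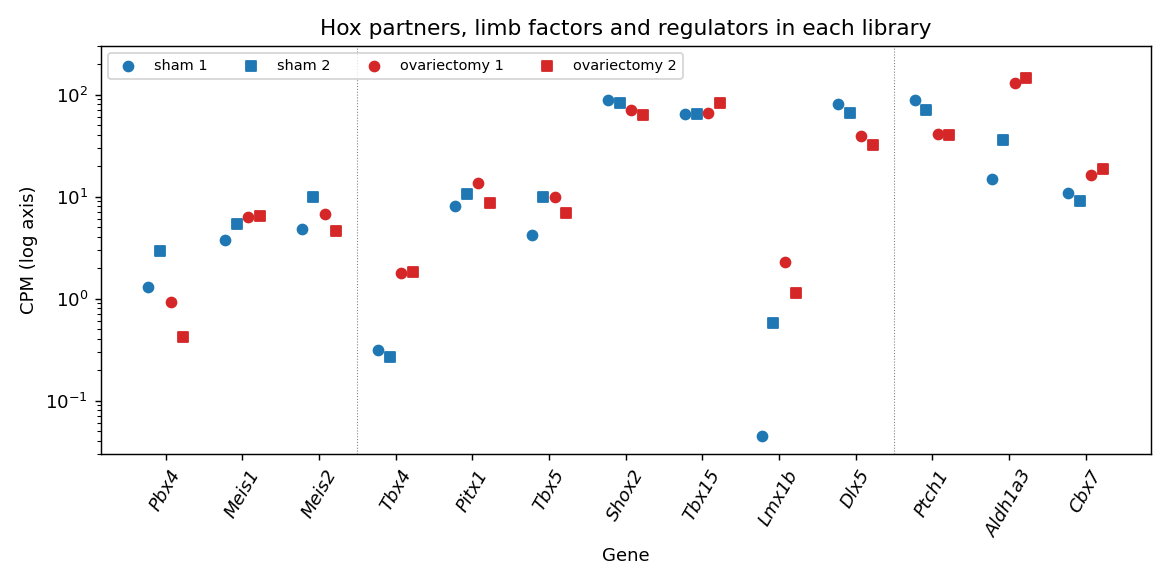
CPM on a log axis of the genes named here in each library, with Hox partners on the left, limb patterning factors in the middle and genes of Hox regulation on the right, divided by dotted lines. Dlx5 and Ptch1 sit lower and Aldh1a3 higher in both ovariectomy libraries. Tbx4, Cbx7, Meis1, Tbx15 and Lmx1b (higher) and Pbx4 and Shox2 (lower) are also apart but did not pass the adjusted test. Over all genes tested 49.3% were apart in either direction, and Pbx4, Cbx7, Dlx5, Ptch1 and Aldh1a3 were named for their small p.

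Polycomb proteins keep Hox genes silent and Trithorax proteins keep them active. Of 43 such regulators and Cdx factors 40 were tested and 0 were called by edgeR, with a median log2 fold change of 0.00. In edgeR 9 (22.5%) had an unadjusted p under 0.05, near the 18.4% of all genes. DESeq2 called 1 and limma-voom 0. Cbx7, which encodes a Polycomb chromodomain protein, was at 10.8 and 9.08 CPM in sham against 16.3 and 18.6 CPM in ovariectomy (log2 fold change 0.81, SE 0.23, edgeR adjusted p = 0.113), with no overlap between the groups. The Cdx genes, which set Hox expression in the early embryo, were under the filter.

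Retinoic acid along the trunk and hedgehog signals in the limb are known to influence Hox expression. Of 25 such genes 19 were tested, 1 rose and 1 fell, with a median log2 fold change of -0.09. The called genes were 10.53% of those tested, beside 4.18% of all genes. In edgeR 6 (31.58%) had an unadjusted p under 0.05, against 18.4% of all genes. Aldh1a3, an enzyme that makes retinoic acid, was at 14.9 and 35.97 CPM in sham against 131 and 147 CPM in ovariectomy. It was higher in both ovariectomy libraries by more than the wide gap within sham and rose by 2.45 on the log2 scale (SE 0.36, edgeR adjusted p = 0.0128). Its log2 fold change was 1.95 without sham 1 and 3.23 without sham 2. Ptch1, the hedgehog receptor and itself a hedgehog target, was at 87.7 and 70.7 CPM in sham against 41.1 and 40.6 CPM in ovariectomy. It fell by 0.96 on the log2 scale (SE 0.15, edgeR adjusted p = 0.0180). The tendon and fibroblast markers were high in the libraries in which Aldh1a3 was high, chondrocyte markers were low where Ptch1 was low, and their part was not tested. Without ovariectomy 1 or 2, where no gene was called, the adjusted p of Aldh1a3 was 0.298 and 0.301 and that of Ptch1 0.361 and 0.364.

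Within the 4 clusters and 10 kb on either side, 51 other annotated genes were found, mostly antisense and intergenic RNAs and microRNA precursors. Of these 26 had 0 counts in every library, 8 were tested and 0 were called by edgeR, DESeq2 or limma-voom, with 0 at an unadjusted p under 0.05 in edgeR. Hoxaas2, antisense in HoxA, had 17 and 35 counts in sham against 6 and 5 in ovariectomy (log2 fold change -2.15, SE 1.01, edgeR adjusted p = 0.321). Hoxa11os, antisense to Hoxa11, had 23 and 39 counts in sham against 75 and 48 in ovariectomy (1.03, SE 0.57, edgeR adjusted p = 0.413). Both were apart between the groups and in opposite directions. Hotair, which lies in HoxC, had 15 and 0 counts in sham against 21 and 0 in ovariectomy, with counts in 1 library of each group. Hottip, at the HoxA end next to Hoxa13, had 0 counts in every library.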

How the data were processed

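RNA of 2 sham and 2 ovariectomy libraries was sequenced after SMARTER mRNA library preparation, per the labels' protocols. Raw read counts per gene were deposited by the authors in a single table. The submitters' processing notes name Trim Galore 0.6.6, featureCounts 2.0.1 and the build GRCm38. Aligner, annotation release and strand setting were not given in the sources used here. Totals were 22935095, 23721078, 23228031 and 18291436 counts (sham 1 and 2, ovariectomy 1 and 2).

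IDs were named from GENCODE M21 (symbols for 55227 of 55487). All genes passing filterByExpr (17120) were scaled by TMM and compared with edgeR 4.0.16 (R 4.3.3, two-sided quasi-likelihood F test, group only, Benjamini-Hochberg over all tested, called at adjusted p under 0.05). A log2 fold change sets ovariectomy over sham, and its SE is its size over the square root of F. The fit had 2 residual degrees of freedom and a biological coefficient of variation of 0.317. Levels are CPM, and levels of different genes are compared per kb of exon. The shares of Hox counts by cluster are the exception, being raw counts without scaling for length. DESeq2 1.42.0, limma-voom (limma 3.58.1), other scalings, other filters, the replicate number as a block and each library left out were alternatives. Ordering by the length of the longest coding transcript was an alternative chosen after seeing the data. The edgeR procedure was first run on counts simulated from the fitted means and dispersions, with planted changes. The outcome of that run is not reported here.

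The Hox members and all gene lists were chosen with earlier results of these data known. Per-library values were set for Hox genes that were called or had a mean of at least 5 CPM, for up to 4 called genes of each other list or else the 2 with the smallest p, and for Meis1, Meis2, Tbx4, Tbx5, Pitx1, Shox2, Tbx15 and Lmx1b. Other Hox genes are given by range or counts, those singled out having been chosen after their values were seen. Some genes are not reported here by name, and counts over lists include them.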

Additional observations from a re-analysis of the deposited data

How the results depend on the processing

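Depth limits the 17 untested Hox genes. Hox calls numbered 0 with library totals only, 3 without a filter, 3 at a mean of at least 5 CPM and 0 to 2 with 1 library left out, against 1 otherwise. Hoxc10, Hoxc9 and Hoxa9 made up the 3. Without a filter 1656 of all genes were called, with 1105 at a mean of 5 CPM and 1339 with DESeq2, against 716, and 0 to 1835 with 1 library left out (0 without either ovariectomy library, with 1788 and 1618 at an unadjusted p under 0.05, 1290 without sham 1 and 1835 without sham 2). Leaving out a library assumes that the lone sample varies like the other group. Library totals moved the median of all genes from -0.02 to 0.09 and the share of higher calls from 71.2% to 82.2%. Partner genes called numbered 1 without a filter, at 5 CPM, with DESeq2, with limma-voom and with the replicate block, and 0 to 1 with 1 library left out. Limb factors called numbered 2 with library totals, 4 without a filter, 3 at 5 CPM, 3 with DESeq2, 3 with limma-voom (Meox2 and Pax1 beside Dlx5 in the last 3), 2 with the replicate block and 0 to 7 with 1 library left out. Chromatin regulators numbered 1 without a filter, 1 with DESeq2 and 0 to 1 with 1 library left out, retinoid and cue genes 4 without a filter and 0 to 6, and cluster RNAs 0 to 0. Of 239 single-gene Hox refits, 219 kept direction and side of the threshold, 4 lost the call, 6 gained one and 10 changed sign. Hoxc4 changed sign with library totals (0.0161). With 1 library left out, log2 fold changes that changed sign ran from -0.23 to 0.61 (Hoxa5), -0.0238 to 0.31 (Hoxa11), -0.80 to 0.28 (Hoxb2), -0.51 to 0.26 (Hoxc4), -0.94 to 0.0417 (Hoxc8), -0.0406 to 0.40 (Hoxd8), -0.48 to 0.41 (Hoxd9), -0.80 to 0.26 (Meis2), -0.10 to 0.56 (Pitx1) and -0.23 to 0.997 (Tbx5). Summed HoxA ran from -0.59 to -0.36 and summed HoxD from -0.25 to 0.41 on the log2 scale. The causes were not tested. The replicate block left 1 Hox gene called and raised the whole table to 1074 calls. Same-numbered libraries share only a number: their deviations correlated at r = 0.0043 over 17120 genes.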
